A study of Mus musculus with 21 samples.

Results

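The genes described here encode surface proteins of adipocyte precursors: both receptors for platelet-derived growth factor (PDGF), Pdgfra and Pdgfrb, and the surface markers Cd44, Thy1, Dlk1, Ly6a and Cd34. In all 7 genes are listed, and a probe set counted as a member when the array annotation gave it 1 of these symbols and no other. On that rule 6 of the 7 had at least 1 probe set among the 18194 genes with one, and each gene is given by its probe set with the highest mean over all 21 arrays. Of the 6, 5 were bright enough to be tested, Cd34 was not, and Ly6a is not analysed here.

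PDGF receptors are receptor tyrosine kinases of mesenchymal cells. Dimeric PDGF ligands bring receptor chains together, the chains phosphorylate each other, and adaptor proteins, phosphatidylinositol 3-kinase, Src kinases and STAT factors dock on the phosphorylated tails. In fat tissue PDGFRA and PDGFRB mark stromal cells that include adipocyte progenitors, CD34, LY6A (Sca-1), THY1 (CD90) and CD44 are used to sort such cells, and DLK1 (Pref-1) is a surface protein of preadipocytes whose release as a soluble form inhibits their differentiation. CD44 is also the main receptor for hyaluronan, the long sugar polymer of the extracellular matrix.

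The cells were 3T3-L1, an established mouse fibroblast line that becomes fat-storing adipocytes in culture, and the labels state that preadipocytes were differentiated for 14 days. There were 7 groups of 3 arrays: an untreated control labelled 0 h, dexamethasone (Dex, a synthetic glucocorticoid) at 20 nM for 2 h, 24 h or 6 d, and the cytokine tumour necrosis factor alpha (TNF) for the same times. The dose of TNF and the vehicle are not given in the labels. All groups share the cell line and the differentiation, and there was no undifferentiated group among them. The labels list no untreated group at the treatment times. Comparisons with control, and steps between times within a treatment, thus cannot tell treatment from any further time in culture. Comparisons of Dex with TNF at the same time do not have this limit. The labels call the replicates biological without saying how cultures were kept apart, so p-values measure the spread between these samples, which may be in part technical.

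Values are log2 expression after robust multi-array averaging (RMA), so a difference of 1 is a 2-fold difference. The level of a probe set depends on its own probes, so levels are compared between groups and never between genes. Changes were tested with limma over all 12156 genes above the low-value filter, and a gene is said to have risen or fallen when its Benjamini-Hochberg adjusted p was below 0.05. All comparisons with control use the same 3 control arrays. Each culture was measured as a whole, so fewer or more cells of a kind (such as cells that had not differentiated) and less or more RNA per cell cannot be told apart.

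The 3 adipocyte genes Adipoq, Fabp4 and Lpl had control means of 14.88, 14.93 and 14.68, near the top of the scale at 15.06, and 14 of 15 measured adipocyte genes were above the filter level of 5.34 in every group. The exception was Lep, whose control mean was 4.67. One array stood apart, TNF 6 d replicate 2: the SD of its values was 2.04, where the other 20 arrays had 2.44 to 2.51, and the gap between 3' and 5' probe sets of the control transcripts, a sign of RNA quality, was 2.00, where the others had 0.0210 to 0.777. Leaving it out changes the TNF 6 d means and also lowers the spread that limma pools over all groups. Results are given with it, and without it only where stated. Most TNF 6 d changes of genes other than the members include it, and some differ without it. Hes1 changed by -1.09 with it and -0.79 without it, Mcam by -1.38 and -1.08, and Cav1 by -0.98 and -0.73. Vcan changed by 1.33 and 1.77, while Slc9a3r1 (1.52 and 1.57), Mmp14 (1.26 and 1.22) and Snai2 (1.15 and 1.14) differed less. No 2 arrays held identical values.

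**Figure D1:**
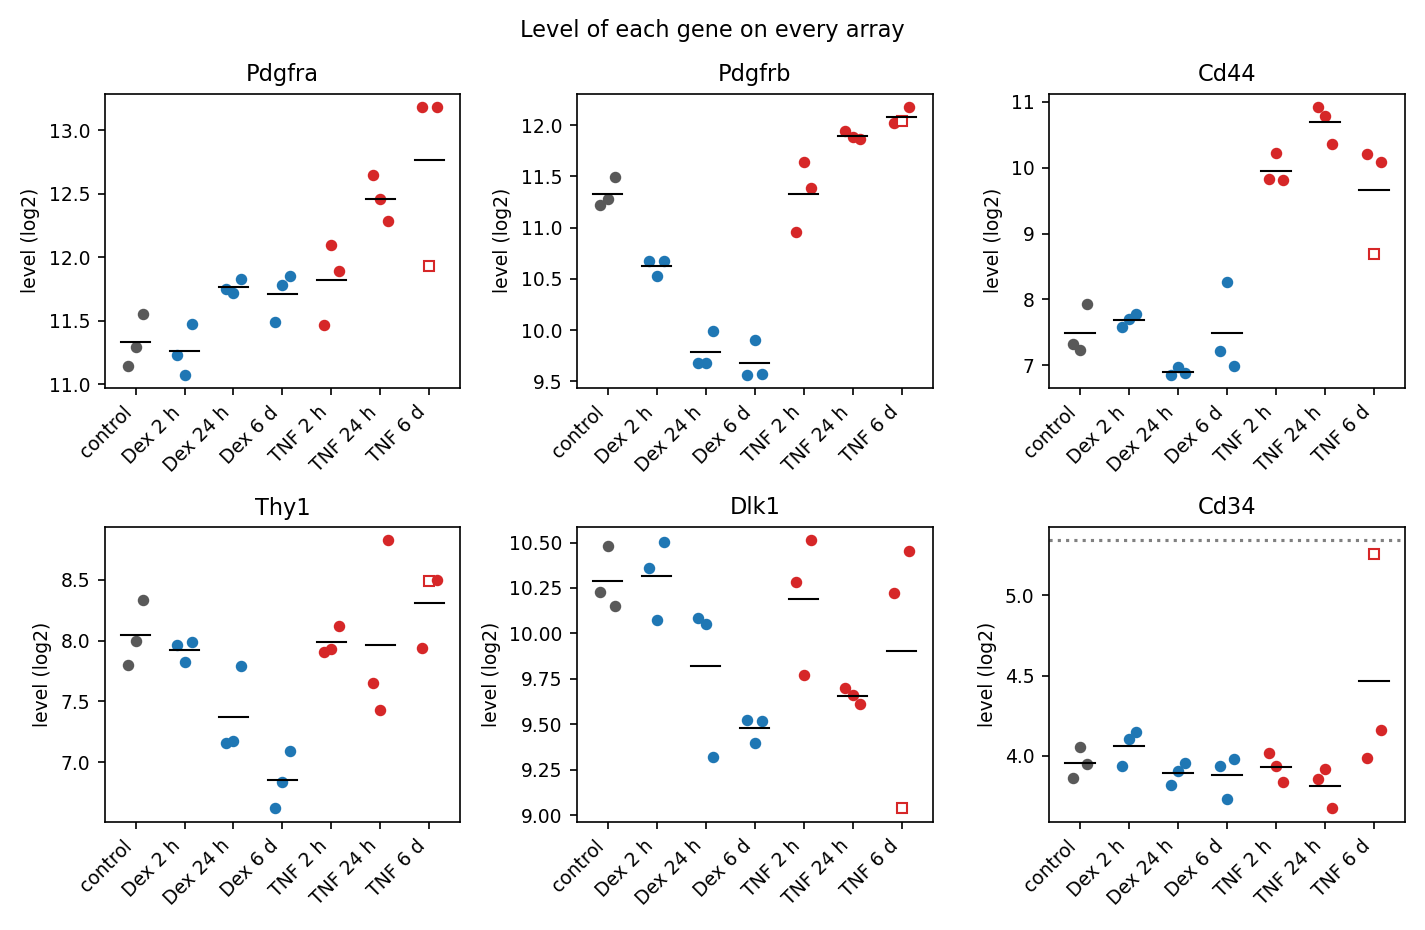
Log2 level of the 6 measured genes (vertical axes, a separate range for each gene) on every array of the 7 groups (horizontal axes); bars are means of 3 arrays, the open square is TNF 6 d replicate 2, and the dotted line in the Cd34 panel is the filter level of 5.34. All Dex arrays lay below all control arrays for Pdgfrb, all TNF arrays above all control arrays for Cd44, and every Cd34 value below the filter level.

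Across the 5 tested genes the picture differed between the treatments. Under Dex 1 of the 5 fell at 2 h and at 24 h (Pdgfrb each time) and 2 fell at 6 d (Pdgfrb and Thy1), and no member rose at any of the 3 times. Among all tested genes 2.48% were called at 2 h, 4.18% at 24 h and 8.3% at 6 d. Under TNF 1 member rose at 2 h (Cd44) and 3 rose at 24 h and at 6 d (Cd44, Pdgfra and Pdgfrb), and no member fell, where 3.82%, 8.69% and 15.2% of all tested genes were called. The median change of the 5 genes was -0.59 at Dex 24 h and -0.81 at Dex 6 d, against medians of -0.0025 and -0.02 over all tested genes, and it was 0.56 at TNF 24 h and 0.75 at TNF 6 d against -0.03 and -0.23. At TNF 6 d these medians were 0.77 for the members and -0.05 for all genes without replicate 2. The members were chosen with earlier results of these data known. Their counts and medians, here and below, are thus descriptions and no test of these genes as a class.

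Without TNF 6 d replicate 2 the members called against control became 1, 1 and 3 under Dex, where the shares of all tested genes were 7.12%, 13.2% and 24%. Under TNF they became 2, 4 and 3, where the shares were 10.7%, 25.6% and 20.5%. The calls that this added were Dlk1 at Dex 6 d and at TNF 24 h, lower in both, and Pdgfra at TNF 2 h, higher.

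**Figure D2:**
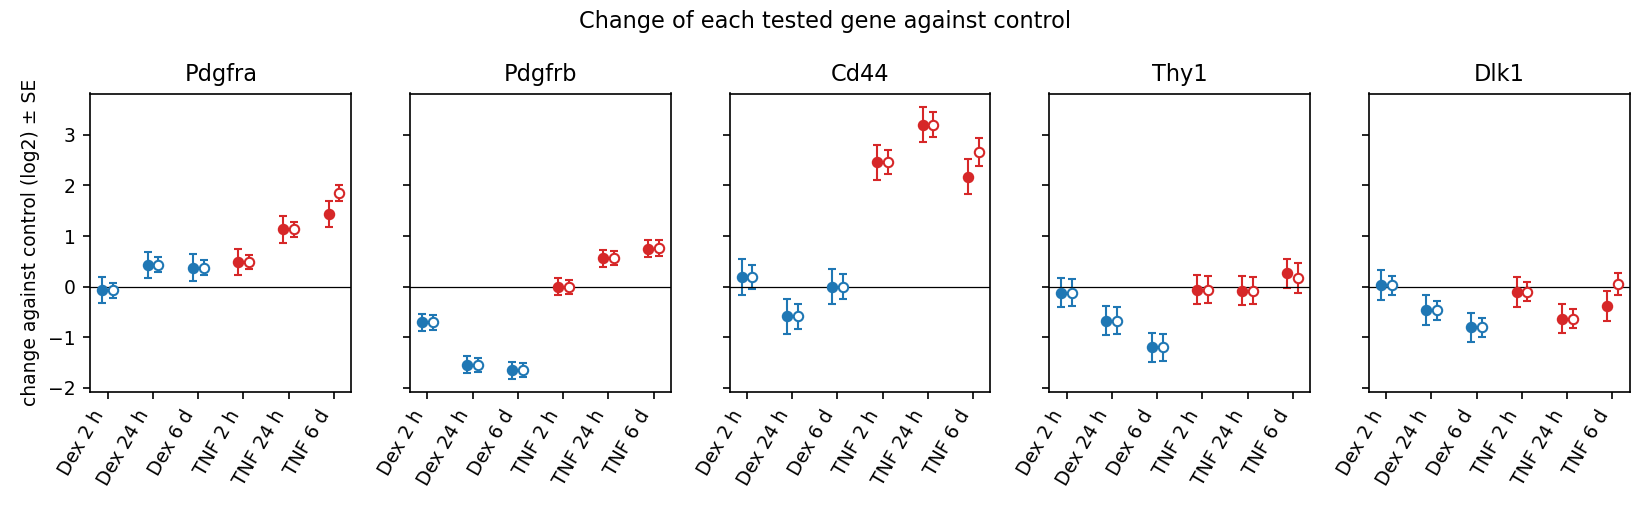
Change of the 5 tested genes against control in log2 units with its standard error (vertical axis), for Dex (blue) and TNF (red) at 2 h, 24 h and 6 d. Filled points use all 21 arrays and open points leave out TNF 6 d replicate 2; Pdgfrb lay below 0 at every Dex time, and Cd44 lay above 2 at every TNF time.

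Pdgfrb, the PDGF receptor chain of pericytes and other mural and stromal cells (chromosome 18, 61045127 to 61085067 in GRCm38.p6), moved in opposite directions under the treatments. Its levels were 11.22, 11.28 and 11.49 on the control arrays, 10.67, 10.53 and 10.68 at Dex 2 h, 9.68, 9.68 and 9.99 at Dex 24 h, and 9.56, 9.91 and 9.57 at Dex 6 d. They were 10.96, 11.64 and 11.38 at TNF 2 h, 11.94, 11.88 and 11.86 at TNF 24 h, and 12.03, 12.04 and 12.18 at TNF 6 d. No Dex array overlapped the control arrays, the TNF 2 h arrays lay on both sides of them, and all TNF 24 h and 6 d arrays were above them. The TNF 6 d replicate 2 array was in the middle of its group for this gene.

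Pdgfrb changed by -0.71 ± 0.17 (SE, n = 3 against 3) at Dex 2 h (limma adjusted p = 0.0251), by -1.55 ± 0.17 at 24 h (adjusted p = 8.48e-06) and by -1.65 ± 0.17 at 6 d, a 3.14-fold lower level (adjusted p = 2.1e-06). The fall had reached most of its size by 24 h: the step from 2 h to 24 h was -0.84 ± 0.17 (adjusted p = 0.0059), while that from 24 h to 6 d was -0.10 ± 0.17 (adjusted p = 1). Under TNF the change was -0.0051 ± 0.17 at 2 h (adjusted p = 1), 0.56 ± 0.17 at 24 h (adjusted p = 0.0422) and 0.75 ± 0.17 at 6 d (adjusted p = 0.00609). The 24 h and 6 d falls under Dex held in all 33 other fits of that change. The small ones did not: the Dex 2 h call was lost without any 1 of the 3 control or the 3 Dex 2 h arrays (adjusted p 0.0576 to 0.139), and the TNF 24 h call without any 1 of 13 arrays (0.0525 to 0.165), namely control 1 and 2, all of Dex 2 h and TNF 24 h, Dex 24 h 1 and 2, Dex 6 d 1 and 3, and TNF 2 h 3. Without TNF 6 d replicate 2 both calls held, at adjusted p = 0.00221 and 0.00546. The TNF 6 d rise was called in 30 of 33 other fits. It lost its call with the control and TNF 6 d arrays fitted alone (limma adjusted p = 0.247), with the 2-fold limit and with the other probe set (0.265).

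In order of level, Pdgfrb ran Dex 6 d, Dex 24 h, Dex 2 h, TNF 2 h, control, TNF 24 h and TNF 6 d. Taking neighbours as apart when the gap of their means exceeded the sum of their SDs, Dex 24 h and Dex 2 h, Dex 2 h and TNF 2 h, control and TNF 24 h, and TNF 24 h and TNF 6 d were apart. Dex 6 d and Dex 24 h, and TNF 2 h and control, were not.

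Pdgfra, the receptor chain that binds PDGF-AA as well as other PDGF dimers (chromosome 5, 75151322 to 75198206), rose under TNF and was not called under Dex. Its control arrays were at 11.14, 11.30 and 11.56. The Dex arrays were at 11.23, 11.07 and 11.47 at 2 h, at 11.75, 11.72 and 11.83 at 24 h, and at 11.49, 11.78 and 11.85 at 6 d. The TNF arrays were at 11.47, 12.10 and 11.89 at 2 h, at 12.64, 12.46 and 12.28 at 24 h, and at 13.18, 11.93 and 13.18 at 6 d. All TNF 24 h and TNF 6 d arrays were above the control arrays, and the low value at TNF 6 d was that of replicate 2. The Dex 24 h arrays were also all above control, the direction opposite to that of Pdgfrb at the same time.

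Pdgfra rose by 1.13 ± 0.26 at TNF 24 h, a 2.19-fold higher level (limma adjusted p = 0.0075), and by 1.43 ± 0.26 at TNF 6 d (adjusted p = 0.0014), or by 1.85 without replicate 2. Its change of 0.49 ± 0.26 at TNF 2 h had adjusted p = 0.628, and 0.0371 without TNF 6 d replicate 2. Under Dex it changed by -0.07 at 2 h (adjusted p = 1), 0.43 at 24 h (adjusted p = 0.655) and 0.38 at 6 d (adjusted p = 0.557), each ± 0.26. By level the order was Dex 2 h, control, Dex 6 d, Dex 24 h, TNF 2 h, TNF 24 h and TNF 6 d, and the only neighbours apart by more than the sum of their SDs were TNF 2 h and TNF 24 h. Without TNF 6 d replicate 2 the order was the same, and TNF 24 h and TNF 6 d, then at 13.18, were apart too. The TNF 24 h rise was called in all 34 other fits. The TNF 6 d rise was called in 33 of 34: fitted with the control and TNF 6 d arrays alone, its adjusted p was 0.26.

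Both receptors had further probe sets, and these are separate readings of the same gene. For Pdgfra all 3 probe sets were called higher at TNF 24 h and 6 d, with unequal sizes: at TNF 24 h the probe sets 1438946_at and 1421916_at rose by 2.22 and 0.91 (limma adjusted p = 1.85e-05 and 0.0213), and at TNF 6 d by 1.88 and 1.59 (adjusted p = 2.89e-04 and 3.41e-04). They differed elsewhere: from TNF 24 h to 6 d the used probe set changed by 0.31, 1421916_at by 0.68 and 1438946_at by -0.34, none called, and the difference of Dex minus TNF at 24 h was called with all arrays for 1438946_at alone (-1.89, adjusted p = 8.02e-05). For Pdgfrb the other probe set, 1417148_at, fell by 1.37 at Dex 24 h and by 1.44 at Dex 6 d (adjusted p = 0.00115 and 3.81e-04). Its change was -0.67 at Dex 2 h (adjusted p = 0.234), 0.60 at TNF 24 h (adjusted p = 0.145) and 0.36 at TNF 6 d (adjusted p = 0.265). So the fall of Pdgfrb at the later Dex times was called by both of its probe sets, and the fall at Dex 2 h and the rises under TNF by 1.

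**Figure D3:**
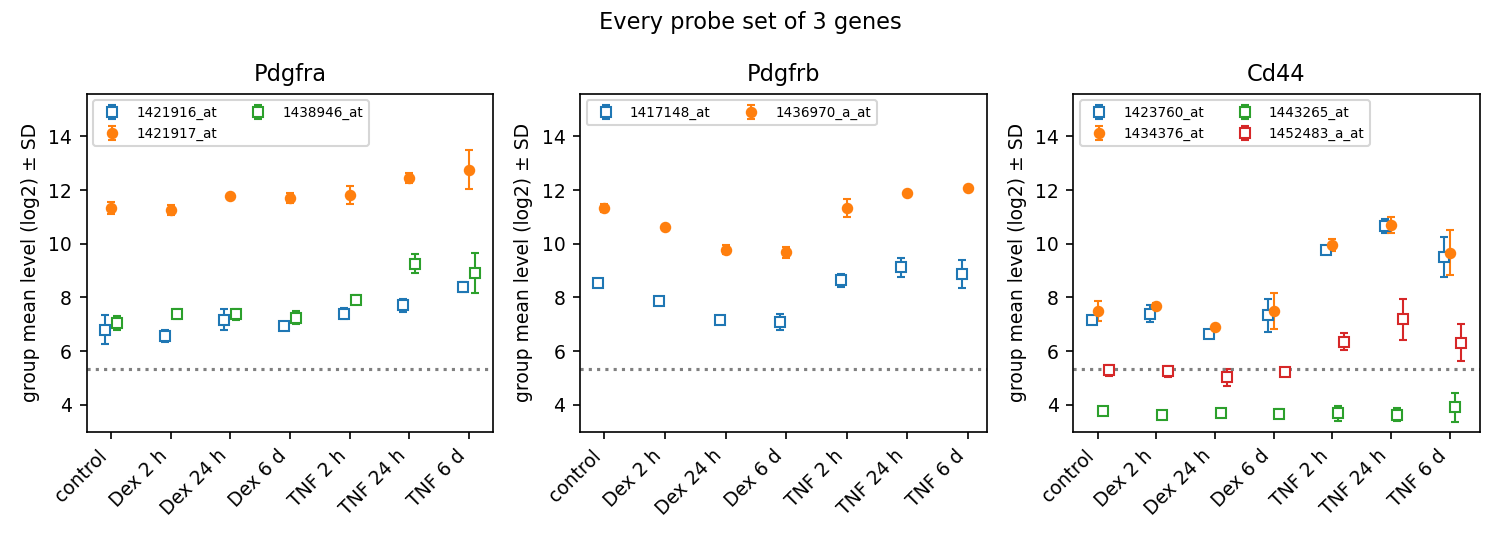
Mean log2 level ± SD over 3 arrays (vertical axes) of every probe set of Pdgfra, Pdgfrb and Cd44 in the 7 groups (horizontal axes). Filled circles are the probe set used in the text, open squares the others, and the dotted line the filter level of 5.34; all 3 Pdgfra probe sets were highest in the TNF 24 h or 6 d group, and Cd44 probe set 1443265_at stayed below the line.

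Of the 4 genes for PDGF ligands, Pdgfa and Pdgfc were tested, and Pdgfb and Pdgfd had group means below 5.34 in all 7 groups. Pdgfa, whose product forms the PDGF-AA dimer, was at 8.25, 8.18 and 8.07 on the control arrays. It was at 9.31, 9.77 and 9.26 at TNF 2 h, at 9.62, 9.42 and 10.13 at TNF 24 h, and at 9.43, 8.69 and 9.15 at TNF 6 d. Every TNF array was above every control array. Pdgfa rose by 1.28 ± 0.20 at TNF 2 h (limma adjusted p = 4.29e-04), by 1.56 ± 0.20 at 24 h (adjusted p = 2.78e-05) and by 0.92 ± 0.20 at 6 d (adjusted p = 0.00554), or by 1.12 at 6 d without replicate 2. Under Dex its changes were 0.01, 0.07 and 0.35, none of them called. Pdgfc, whose product forms PDGF-CC, fell at TNF 24 h by 0.81 ± 0.23 (adjusted p = 0.0294), a call lost without any 1 of the 3 control or the 3 TNF 24 h arrays.

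**Figure D4:**
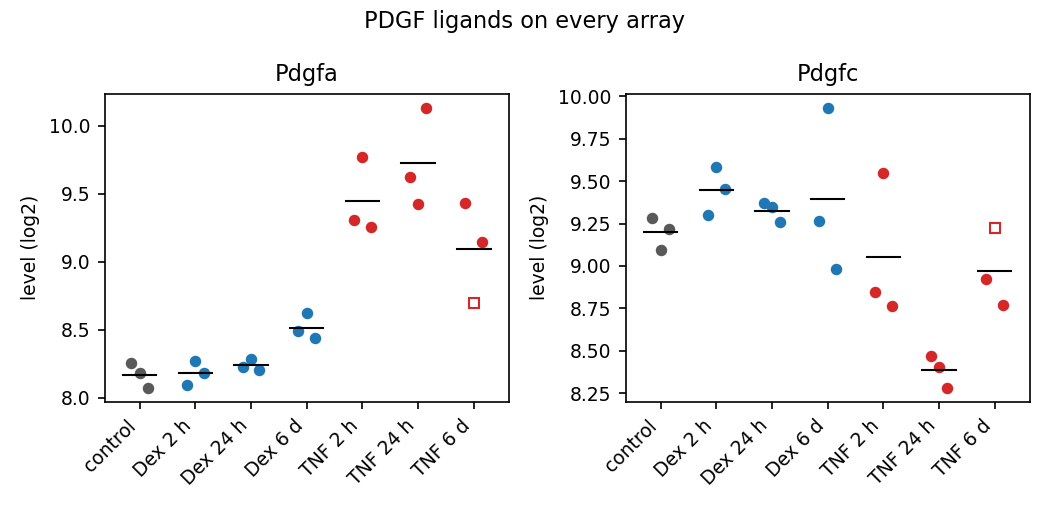
Log2 level of Pdgfa and Pdgfc (vertical axes) on every array of the 7 groups (horizontal axes), with bars at the means of 3 arrays and TNF 6 d replicate 2 as an open square. Pdgfa was higher on all TNF arrays than on the control arrays, and Pdgfc was lowest at TNF 24 h.

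Of 28 genes for proteins that act just behind PDGF receptors, 27 were tested. Under Dex 0, 1 and 2 rose and 0, 0 and 1 fell at 2 h, 24 h and 6 d, and under TNF 3, 4 and 2 rose and 0, 2 and 2 fell. With TNF 6 d replicate 2 left out these became 3, 3 and 5 higher with 1, 1 and 5 lower under Dex. Under TNF they became 8, 6 and 5 higher with 0, 2 and 2 lower. Among all tested genes 2.48%, 4.18% and 8.3% were called at the Dex times and 3.82%, 8.69% and 15.2% at the TNF times. Without that array these shares were 7.12%, 13.2% and 24% under Dex and 10.7%, 25.6% and 20.5% under TNF. Counts of this list and of the lists below are descriptions to be set beside these shares. The counts include rises of genes with control means below the filter level. Among these were Icam1 at TNF 2 h, Ly6i and Cd68 at TNF 24 h, and Cd55 and Cemip at TNF 6 d. They may have passed the filter only through the group in which they rose. Ptpn1, the tyrosine phosphatase PTP1B, which removes phosphates from receptor tyrosine kinases, rose by 1.61 ± 0.14 at TNF 2 h (limma adjusted p = 3.02e-07). Stat3, a transcription factor that docks on activated receptors, rose by 0.90 ± 0.17 at TNF 24 h (adjusted p = 0.00129). Cav1, a coat protein of caveolae that binds PDGF receptors, fell by 0.78 ± 0.16 at TNF 24 h and by 0.98 ± 0.16 at 6 d (adjusted p = 0.00247 and 5.09e-04). Pik3r1, the regulatory p85 subunit of phosphatidylinositol 3-kinase, rose by 1.25 ± 0.22 at Dex 6 d (adjusted p = 6.61e-04). Slc9a3r1, a scaffold protein that binds PDGF receptors, rose by 1.52 ± 0.19 at TNF 6 d (adjusted p = 6.62e-05).

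Cd44, the hyaluronan receptor (chromosome 2, 102811141 to 102901669), had the largest changes among the members under TNF. It was at 7.33, 7.23 and 7.93 on the control arrays. Under TNF it was at 9.83, 10.23 and 9.81 at 2 h, at 10.92, 10.79 and 10.37 at 24 h, and at 10.21, 8.69 and 10.09 at 6 d. Under Dex it was at 7.58, 7.70 and 7.77 at 2 h, at 6.86, 6.97 and 6.88 at 24 h, and at 7.22, 8.26 and 6.99 at 6 d. All 9 TNF arrays were above all control arrays and all Dex arrays, the lowest of them being TNF 6 d replicate 2. The Dex 24 h arrays were all below control, and the Dex 2 h and 6 d arrays overlapped it, with Dex 6 d replicate 2 high. That array had the 3' to 5' gap of 0.777, the widest among the other 20, and its part in the value was not tested.

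Cd44 rose by 2.46 ± 0.35 at TNF 2 h, a 5.50-fold higher level (limma adjusted p = 1.24e-04), by 3.20 ± 0.35 at 24 h, or 9.19-fold (adjusted p = 3.47e-06), and by 2.17 ± 0.35 at 6 d (adjusted p = 5.36e-04), or 2.66 without replicate 2. The Dex changes were 0.19, -0.59 and -0.0019 at the 3 times, and none was called (adjusted p = 1, 0.648 and 0.999). By level the order was Dex 24 h, Dex 6 d, control, Dex 2 h, TNF 6 d, TNF 2 h and TNF 24 h, and the neighbours apart by more than the sum of their SDs were Dex 2 h and TNF 6 d, and TNF 2 h and TNF 24 h. Without replicate 2 the TNF 6 d mean was 10.15, between TNF 2 h and TNF 24 h, and the neighbours apart were Dex 2 h and TNF 2 h, and TNF 6 d and TNF 24 h. The TNF 2 h and 24 h calls held when any 1 array was left out, and with the control and TNF 6 d arrays fitted alone the 6 d change had adjusted p = 0.2. Of the other probe sets 1423760_at rose by 2.59, 3.50 and 2.34 at the TNF times and was called at no Dex time. Probe set 1452483_a_at had means below the filter level in control (5.28) and at every Dex time, and passed the filter only through its TNF arrays. It rose by 1.91 and 1.04 at TNF 24 h and 6 d and changed by 1.08 at TNF 2 h (adjusted p = 0.0838). Against a control near background these sizes are lower limits, and they are not separate support for the rise. Probe set 1443265_at was below the filter level in every group.

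Of 15 genes for the making, breaking and binding of hyaluronan and for partners of CD44, 13 had a probe set and 10 were tested. With all arrays none was called at Dex 2 h or 24 h and 1 fell at Dex 6 d, and under TNF 1, 1 and 4 rose and none fell. On the other 20 arrays 0, 1 and 1 rose and 1, 0 and 1 fell under Dex, and 2, 5 and 6 rose and 1, 1 and 0 fell under TNF. Has2, a hyaluronan synthase, rose by 2.83 ± 0.27 at TNF 2 h (limma adjusted p = 9.45e-07), and it was not called at 24 h or 6 d. Msn, moesin, which ties the tail of CD44 to actin, rose by 1.11 ± 0.19 at TNF 24 h (adjusted p = 5.19e-04). Mmp14, a membrane protease that can cleave CD44, rose by 1.26 ± 0.18 at TNF 6 d (adjusted p = 1.86e-04). Vcan, versican, a proteoglycan bound to hyaluronan, rose by 1.33 ± 0.34 at TNF 6 d (adjusted p = 0.0127), and the call was lost without control replicate 1 or control replicate 2.

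The RefSeq promoter windows of Pdgfra and Cd44, the members whose TNF rises at 24 h were called in every other fit, are shown because TNF and Dex are known to act through sequence-specific transcription factors. Each window holds the 250 bases before a start site annotated in GRCm38.p6, 5′ to 3′ on the strand of the gene, and no letter is in capitals because no motif searched was found. The Pdgfra window is chr5:75152001-75152250 on the plus strand, within the annotated span of the gene, which has an earlier start too, and the Cd44 window is chr2:102901666-102901915 on the minus strand.
Pdgfra: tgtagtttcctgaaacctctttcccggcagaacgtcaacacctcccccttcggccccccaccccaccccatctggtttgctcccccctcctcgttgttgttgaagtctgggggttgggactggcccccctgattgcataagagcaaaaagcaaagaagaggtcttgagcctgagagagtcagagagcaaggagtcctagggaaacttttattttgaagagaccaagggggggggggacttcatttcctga
Cd44: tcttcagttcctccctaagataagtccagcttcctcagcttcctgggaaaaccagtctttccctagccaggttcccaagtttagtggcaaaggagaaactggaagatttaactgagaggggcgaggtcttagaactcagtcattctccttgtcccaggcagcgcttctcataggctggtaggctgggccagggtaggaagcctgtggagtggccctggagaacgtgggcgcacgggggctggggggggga
The glucocorticoid receptor motif AGAACA, the AP-1 motif TGANTCA and the NF-kB motif (GGGA, any base, TTTCC) were searched on both strands. None was in the windows of Pdgfra, Cd44, Dlk1 or Cd34, the 4 members with an entry used here. No window of Pdgfrb or Thy1, the members called lower under Dex with all arrays, was searched. Among all 32851 promoter windows of that length 16.1%, 6.75% and 0.356% held these motifs. The search says only that these letters are not in these windows.

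Thy1, a small glycoprotein held in the membrane by a lipid anchor (chromosome 9, 44043384 to 44048579), fell under Dex at 6 d and was not called under TNF. The control arrays were at 7.80, 8.00 and 8.34. The Dex arrays were at 7.96, 7.83 and 7.99 at 2 h, at 7.15, 7.17 and 7.79 at 24 h, and at 6.62, 6.84 and 7.09 at 6 d. The TNF arrays were at 7.91, 7.93 and 8.12 at 2 h, at 7.65, 7.43 and 8.83 at 24 h, and at 7.94, 8.49 and 8.50 at 6 d. The Dex 24 h and 6 d arrays were all below control, and the TNF arrays overlapped it at every time. The spread at TNF 24 h was wide because replicate 3 was high, an array whose 3' to 5' gap was 0.683.

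The fall of Thy1 at Dex 6 d was 1.20 ± 0.29 on the log2 scale, given by limma as a 2.29-fold lower level (adjusted p = 0.0109). It lost its call without control replicate 3 (adjusted p = 0.0617) and without Dex 6 d replicate 1 (adjusted p = 0.0626). At Dex 2 h and 24 h the changes were -0.12 and -0.67 (adjusted p = 1 and 0.319), and under TNF they were -0.06, -0.08 and 0.26. Thy1 has 1 probe set, so no second reading exists here. In the order Dex 6 d, Dex 24 h, Dex 2 h, TNF 24 h, TNF 2 h, control and TNF 6 d, only Dex 24 h and Dex 2 h were neighbours apart by more than the sum of their SDs.

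Ly6a belongs to the family of small lipid-anchored proteins that also holds the urokinase receptor. Of 17 other members of this family 15 had a probe set and 12 were tested. Under Dex 0, 1 and 3 fell at the 3 times and none rose, and under TNF 1, 2 and 0 rose and 0, 1 and 1 fell. Leaving out TNF 6 d replicate 2 gave counts of 0, 2 and 4 lower under Dex, and 1, 3 and 0 higher with 1, 4 and 1 lower under TNF. Ly6e, a Ly6 protein known to be induced by interferons, rose by 2.08 ± 0.50 at TNF 24 h (limma adjusted p = 0.0115), a call lost without control replicate 3 or TNF 24 h replicate 1. Ly6h fell by 1.37 ± 0.24 at Dex 24 h (adjusted p = 0.00143).

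Dlk1, the preadipocyte protein Pref-1 (chromosome 12, 109452485 to 109463336), was called in no comparison with all 21 arrays. It was at 10.23, 10.48 and 10.15 on the control arrays, at 10.36, 10.07 and 10.50 at Dex 2 h, at 10.08, 10.05 and 9.32 at Dex 24 h, and at 9.52, 9.40 and 9.52 at Dex 6 d. Under TNF it was at 10.28, 9.77 and 10.51 at 2 h, at 9.70, 9.66 and 9.61 at 24 h, and at 10.22, 9.04 and 10.45 at 6 d. The Dex 6 d and TNF 24 h arrays were all below the control arrays with little spread, and the lowest of all 21 values was that of TNF 6 d replicate 2. The other 2 arrays of that group lay within the control range.

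The changes of Dlk1 against control were 0.03, -0.47 and -0.81 at the 3 Dex times and -0.10, -0.63 and -0.38 at the 3 TNF times, each ± 0.29. At Dex 6 d the limma adjusted p was 0.117, and without TNF 6 d replicate 2 it was 0.00298. At TNF 24 h the adjusted p was 0.255, and 0.0166 without that array. At TNF 6 d the change turned from -0.38 to 0.05 without it, uncalled either way. The second probe set of Dlk1, 1442724_at, was called in no comparison with control, with changes of -0.37 at Dex 6 d and -0.40 at TNF 24 h. The main probe set, 1449939_s_at, carries a suffix used for probes that can match related transcripts, and the annotation lists Dlk1 alone for it. By level the order was Dex 6 d, TNF 24 h, Dex 24 h, TNF 6 d, TNF 2 h, control and Dex 2 h, and only Dex 6 d and TNF 24 h were neighbours apart by more than the sum of their SDs. Without replicate 2 the TNF 6 d mean was 10.34, the highest of the 7, and the same neighbours alone were apart.

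Among 17 genes of the Notch pathway and other reported partners or targets of DLK1, 13 were tested. Under Dex 3, 2 and 3 fell and none rose, and under TNF 1, 1 and 0 rose and 1 fell at each time. With TNF 6 d replicate 2 left out each Dex time had 4 lower, and the TNF times had 4, 3 and 2 higher and 1 lower each. Hes1, a repressor and the classic Notch target, fell by 1.54 ± 0.22 at Dex 2 h (limma adjusted p = 2.32e-04) and by 1.49 at Dex 6 d (adjusted p = 1.6e-04), and it fell by 1.47, 1.85 and 1.09 at the TNF times (adjusted p = 2.29e-04, 9.71e-06 and 0.00329). Fn1, fibronectin, a matrix protein that binds DLK1, fell by 1.62 ± 0.28 at Dex 6 d (adjusted p = 6.45e-04). Jag1, a Notch ligand, fell by 1.01 ± 0.21 at Dex 6 d (adjusted p = 0.00315), while at TNF 2 h it rose by 0.91 ± 0.21 (adjusted p = 0.0126), a call lost without control replicate 1, control replicate 2 or TNF 2 h replicate 2.

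Cd34, a sialomucin of progenitor and endothelial cells (chromosome 1, 194938821 to 194961292), was near background in every group. Its group means ran from 3.81 at TNF 24 h to 4.47 at TNF 6 d, all below the filter level of 5.34, and the highest array was TNF 6 d replicate 2 at 5.26. Without that array the TNF 6 d mean was 4.07. The other 20 arrays lay between 3.67 and 4.16. No neighbours in its order of levels differed by more than the sum of their SDs, and no change is given for it.

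Beside the members, 19 of 23 other surface markers of preadipocytes and stromal cells were tested. Under Dex 0, 1 and 1 fell and none rose. Under TNF 2, 5 and 4 rose and 0, 1 and 1 fell. Leaving out TNF 6 d replicate 2 gave counts of 0, 0 and 2 higher with 2, 4 and 4 lower under Dex, and 4, 7 and 6 higher with 1, 2 and 1 lower under TNF. Alcam, an adhesion protein, fell by 1.14 ± 0.21 at Dex 24 h and by 1.13 at 6 d (limma adjusted p = 0.003 and 0.00169). Vcam1, which binds leukocyte integrins, rose by 2.29 ± 0.25 at TNF 2 h and by 2.26 at 24 h (adjusted p = 5.06e-06 and 3.76e-06). Osmr, the oncostatin M receptor, rose by 2.96 ± 0.41 at TNF 24 h (adjusted p = 6.01e-05). Mcam (CD146), an adhesion protein of vessel wall cells, fell by 1.38 ± 0.23 at TNF 6 d (adjusted p = 8.22e-04).

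Of 20 measured regulators of preadipocytes and genes of the stromal matrix 18 were tested. Under Dex 2 rose at each time and 0, 5 and 8 fell, and under TNF 1, 0 and 2 rose and 1, 3 and 2 fell. With TNF 6 d replicate 2 left out the falls under Dex were 1, 10 and 11, and under TNF 1, 1 and 6 rose and 2, 4 and 2 fell. At Dex 6 d Lum and Dcn, the matrix proteoglycans lumican and decorin, fell by 4.57 ± 0.48 and 2.13 ± 0.29, and the collagen gene Col1a1 by 2.44 ± 0.30 (limma adjusted p = 3.32e-06, 5.55e-05 and 1.77e-05). Snai2, a transcription factor of mesenchymal cells, moved both ways under each treatment. It rose by 1.60 at Dex 2 h and by 1.15 at TNF 6 d (adjusted p = 7.06e-06 and 2.93e-04), and it fell by 0.84 at Dex 24 h and by 0.81 at TNF 2 h (adjusted p = 0.00622 and 0.00699), each ± 0.17. The call at TNF 2 h was lost without control replicate 2 or TNF 2 h replicate 1 (adjusted p = 0.0506 to 0.0593).

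Adipocyte genes moved in the same samples. Of 14 tested, 1, 1 and 3 fell and 0, 1 and 1 rose under Dex, while 3, 10 and 9 fell and 1, 0 and 0 rose under TNF, and without TNF 6 d replicate 2 the falls were 2, 3 and 4 under Dex and 4, 13 and 9 under TNF. The summed level of the list (log2 of the sum of the linear values) was 17.27 to 17.32 on the control arrays, 16.56 to 16.85 at TNF 24 h and 17.00 to 17.08 at Dex 6 d. Retn, the adipokine resistin, fell by 2.64 ± 0.18 at TNF 24 h (limma adjusted p = 1.45e-08), and Car3, a carbonic anhydrase abundant in fat cells, fell by 5.67 ± 0.30 at Dex 6 d (adjusted p = 4.75e-10). The summed level weighs the brightest genes most. From control to Dex 6 d the mean of Car3 went from 14.30 to 8.63, and that of Fabp4 from 14.93 to 14.94. The part of the shifts of adipocyte genes in the changes of the surface genes was not tested.

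Markers of other cell types gave these values. Of 8 pericyte and smooth muscle markers 4 were tested, and their summed level was 10.05 to 10.15 on the control arrays. It was 10.13 to 10.21, 9.54 to 9.56 and 9.68 to 10.19 at the 3 Dex times and 10.24 to 10.51, 11.32 to 11.82 and 11.29 to 11.71 at the 3 TNF times. It thus lay below control at Dex 24 h and above it at TNF 24 h and 6 d, as Pdgfrb did. But the sum was not below control at Dex 2 h and overlapped it at Dex 6 d, times at which Pdgfrb fell. The sum was also above control at TNF 2 h, where the Pdgfrb arrays lay on both sides of control. In this list 2 rose at TNF 24 h and at 6 d and 1 fell at TNF 6 d, 1 rose at Dex 2 h, and 1 and 2 fell at Dex 24 h and 6 d, and with TNF 6 d replicate 2 left out 2 also fell at TNF 24 h. Acta2, smooth muscle actin, rose by 2.30 ± 0.23 at TNF 24 h and fell by 1.12 ± 0.23 at Dex 24 h (limma adjusted p = 1.14e-06 and 0.00591), while the means of Myh11 and Des, a smooth muscle myosin and desmin, were 6.26 and 7.83 at TNF 24 h and 6.68 and 8.30 in control. Rgs5, Cnn1, Kcnj8 and Abcc9 were below the filter level in every group, Rgs5 with a control mean of 4.58. At TNF 24 h and 6 d the summed level was mostly Acta2, with means of 11.27 and 11.25. The next highest means of the list at these times were 7.86 for Tagln and 7.75 for Des. Setting the sum beside Pdgfrb at these times thus rests largely on Acta2. The part of such cells in the changes of Pdgfrb was not tested.

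Of 15 measured macrophage and leukocyte markers 8 were tested, and 2 rose at TNF 24 h and 1 at TNF 6 d, while with TNF 6 d replicate 2 left out 1 rose at Dex 6 d, 1 at TNF 2 h, 3 at TNF 24 h and 1 at TNF 6 d. Cd68 was among those at TNF 24 h, with a mean of 6.78 there and below the filter level in every other group. It may have passed the filter only through that group. The pan-leukocyte gene Ptprc (3.64 to 3.86 over the group means) and Adgre1, Itgam and Tyrobp were below the filter level in every group. Cd14 rose by 1.77 ± 0.41 at TNF 24 h (limma adjusted p = 0.00759), and the summed level of the list was 9.33 to 9.37 in control and 9.84 to 10.01 at TNF 24 h. Of 10 endothelial markers 2 were tested, Kdr and Flt1 (control means 6.65 and 6.18), both above the filter level in every group. Neither was called against control. The summed level lay between 8.17 and 8.64 on all arrays, and Pecam1 and Cdh5 were below the filter level in every group.

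**Figure D5:**
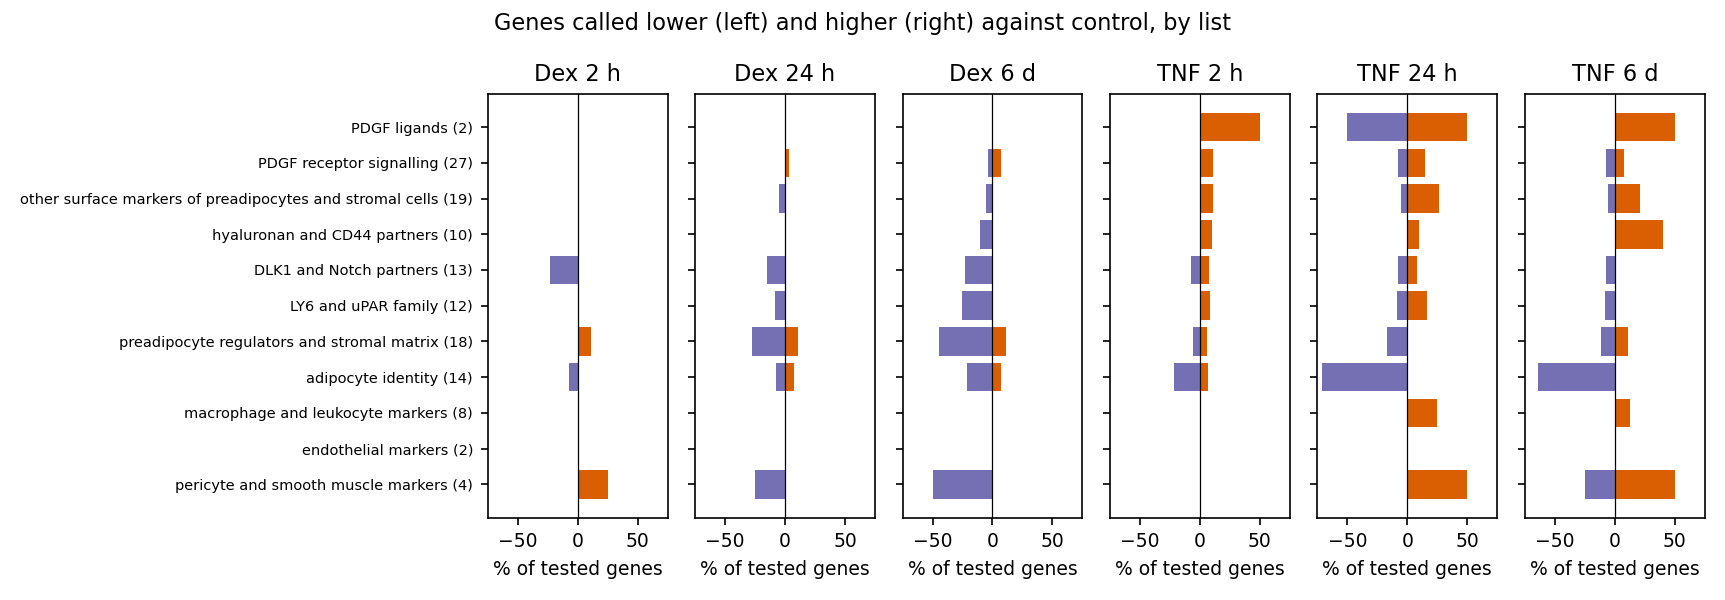
Share of the tested genes of each list (rows, number tested in brackets) called lower (bars to the left) and higher (bars to the right) against control, in percent (horizontal axes), for the 6 treated groups with all 21 arrays. The longest bars are the falls of adipocyte genes at TNF 24 h (10 of 14) and 6 d (9 of 14), and lists of 2 or 4 genes can reach large shares through a single gene.

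Dex and TNF arrays of the same time were also compared directly. At 2 h 2 of the 5 members were lower under Dex, Pdgfrb and Cd44, where 5.97% of all tested genes were called. At 24 h Pdgfrb and Cd44 were again the 2 lower, where 13.5% were called, and at 6 d 4 were lower (Pdgfra, Pdgfrb, Cd44 and Thy1), where 23.7% were called. Without TNF 6 d replicate 2 the counts were 3, 3 and 5, all lower under Dex, and the shares 14.8%, 33% and 30.1%. The median difference of the 5 members was -0.56, -0.69 and -1.46 at the 3 times, and over all tested genes it was 0.03, 0.01 and 0.20. At 6 d these were -1.48 and 0.03 without TNF 6 d replicate 2.

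The difference of Dex minus TNF for Pdgfrb was -0.70 ± 0.17 at 2 h, -2.11 ± 0.17 at 24 h and -2.40 ± 0.17 at 6 d, the last of these a 5.29-fold lower level under Dex (limma adjusted p = 0.0126, 3.74e-08 and 9.9e-09). The 2 h call was lost without Dex 2 h replicate 2, TNF 2 h replicate 2 or TNF 2 h replicate 3 (adjusted p 0.0606 to 0.0887). For Cd44 the difference of Dex minus TNF was -2.27 ± 0.35, -3.79 ± 0.35 and -2.18 ± 0.35 (adjusted p = 1.92e-04, 2.26e-07 and 2.13e-04). For Pdgfra it was -0.56, -0.69 and -1.06, each ± 0.26, called at 6 d alone (adjusted p = 0.372, 0.092 and 0.00696), and without TNF 6 d replicate 2 at each time (0.0111, 9.24e-04 and, with a difference of -1.48, at 6 d also). Thy1 differed by -1.46 ± 0.29 at 6 d (adjusted p = 0.00128), where no Dex array overlapped the TNF arrays. Dlk1 differed by 0.12, 0.16 and -0.43, none called, and by -0.86 at 6 d without TNF 6 d replicate 2 (adjusted p = 0.00343).

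Steps between neighbouring times within a treatment were called for few members. From 2 h to 24 h under Dex 1 of the 5 was called (Pdgfrb, above), against 3.62% of all tested genes, and none from 24 h to 6 d, against 0.683%. From 2 h to 24 h and from 24 h to 6 d under TNF none was called, against 5.69% and 5.99%, although Pdgfrb was near the threshold in the first (0.57 ± 0.17, limma adjusted p = 0.0549) and Cd44 had an unadjusted p of 0.00864 in the second (-1.03 ± 0.35, adjusted p = 0.0851). That step of Cd44 was called without TNF 6 d replicate 1 or replicate 3, which leave replicate 2 in, and was -0.54 without replicate 2. Without TNF 6 d replicate 2 the counts were 3 of 5 and 0 of 5 for the Dex steps, with 13.5% and 4.5% of all tested genes called, and 4 and 2 for the TNF steps, with 22.1% and 9.2%.

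Whether the step between times differed between the treatments was tested as a difference of differences. From 2 h to 24 h 4.51% of all tested genes were called (18.2% without TNF 6 d replicate 2), and from 24 h to 6 d 2.19% (7.21%). Among the probe sets used for the members that of Pdgfrb alone was called with all arrays: its step from 2 h to 24 h was -0.84 under Dex and 0.57 under TNF, a difference of -1.41 ± 0.24 (limma adjusted p = 0.00105), and it was called in all 32 other fits. Cd44 was called for neither step with its used probe set, but probe set 1423760_at was called for both (-1.67, adjusted p = 0.0342, and 1.85, adjusted p = 0.0297). Without TNF 6 d replicate 2 the calls were Pdgfrb and Cd44 (-1.52, adjusted p = 0.00319) for the earlier step, and Pdgfra (-0.78, adjusted p = 0.0343) and Dlk1 (-1.02, adjusted p = 0.0294) for the later one.

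For each tested member the 3 other genes with the most similar pattern were taken by Pearson correlation over the 20 arrays without TNF 6 d replicate 2. These arrays fall into 7 treatment groups, so r largely follows the group means and is a description. Pdgfrb was most like Cald1, Tuba1a and Hmgn3 (r = 0.972, 0.966 and 0.956, and 0.853, 0.966 and 0.956 over all 21 arrays). Cd44 was most like Ifi47, Tlr4 and Casp4 (r = 0.979, 0.978 and 0.972, and 0.977, 0.762 and 0.962 over all 21). Pdgfra was most like Runx1t1, Pawr and Plxnb2 (r = 0.954, 0.950 and 0.949, and 0.915, 0.945 and 0.814 over all 21). Thy1 was most like Ttyh3, Ryk and Angpt4 (r = 0.938, 0.928 and 0.927, and 0.736, 0.766 and 0.923 over all 21). Dlk1 had the lowest values, with Slc25a35, Mfap5 and Jpt1 (r = 0.866, 0.865 and 0.836, and 0.777, 0.897 and 0.862 over all 21).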

How the data were processed

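The authors normalised the arrays by RMA, per the submitters' processing notes, which name no version, and deposited log2 values for 45101 probe sets on 21 arrays. The values run up to 15.06 and were used as deposited. Of the probe sets 34958 list 1 gene symbol, 932 several and 9211 none. Symbols of 34754 were taken from RefSeq by Entrez identifier, whether or not this changed them, and 204 were kept as annotated. Each gene is its probe set with the highest mean. Testing required a value above the median of all values, 5.34, on at least 3 arrays, which left 12156 of 18194 genes.

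One model with a mean per group was fitted to all arrays (limma 3.58.1, R 4.3.3, data.table version 1.17.8), with empirical Bayes moderation with a trend, 14 residual and 3.96 prior degrees of freedom (13 and 6.56 without TNF 6 d replicate 2). There were 13 comparisons and 2 differences of steps. Adjustment was by Benjamini and Hochberg, two-sided, over the genes tested in each. With 3 arrays against 3 the smallest p of an exact permutation test is 0.1. Arrays have no sequencing depth, and their number limits the precision. The fit was tested on simulated data with independent values and, for each gene, the same spread on every array. These held no outlying array and no linked replicates, so that test does not cover such features of the real data.

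Named genes are all members, up to 4 called genes of each list and comparison with the largest change (the text gives some of them), and the 3 most similar genes of each tested member. The members and all 11 gene lists were chosen with earlier results of these data known. In 2 of 13 comparisons (Dex 24 h against control and Dex against TNF at 24 h) every same-numbered pair of arrays deviated together, with correlations of 0.233 to 0.447 and 0.207 to 0.270, which is taken from the data and not from the labels. Alternatives were other filters, probe sets, normalizations, variance models, array weights, a 2-fold limit, a replicate block and leaving out each array. Promoter sequences are from RefSeq, GRCm38.p6. Probe sets of several genes were not used here.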

Additional observations from a re-analysis of the deposited data

Results flagged for a closer look

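One result met a rule for a closer look, a difference between the treatments in the same step of time. From 2 h to 24 h Pdgfrb changed by -0.84 ± 0.17 under Dex and by 0.57 ± 0.17 under TNF, and the difference of the steps was -1.41 ± 0.24 (SE, limma adjusted p = 0.00105). The 3 Dex 24 h arrays were all below the 3 Dex 2 h arrays, and the 3 TNF 24 h arrays all above the 3 TNF 2 h arrays. The difference ran from -1.57 to -1.18 over 32 other fits and was called in each of them (adjusted p 1.54e-11 to 0.0485).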

How the results depend on the processing

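No result changed sign where it was called, under any setting run. Of 815 values of the members under other settings 735 kept their direction and side of the threshold or were uncalled either way, 15 lost their call and 65 gained one. With an array left out these were 1529, 24 and 22 of 1575, and with another probe set 79, 6 and 5 of 90. For named genes of the lists 139 of 1197 values lost their call under other settings and 278 of 2310 with an array left out. Counts of members called that moved by over 1.5 times, or to or from 0, were these. For Dex 2 h against control (1) median centring, cyclic loess and the 2-fold limit gave 0. Array weights gave 2 there, 5 at Dex 24 h, 4 at Dex 6 d, 2 at TNF 2 h, 5 at TNF 24 h, 5 for Dex against TNF at 24 h, 4, 3, 5 and 4 for the steps Dex 24 h against 2 h, Dex 6 d against 24 h, TNF 24 h against 2 h and TNF 6 d against 24 h, and 3 and 5 for the interactions of the earlier and the later step. The weights' fit stopped before full convergence. Fitting only the 2 groups compared gave 2 at Dex 24 h, 0 at TNF 6 d, 1 for Dex against TNF at 6 d, 4 for Dex 24 h against 2 h and 2 for TNF 24 h against 2 h. The 2-fold limit gave 1 for Dex against TNF at 2 h and 0 for Dex 24 h against 2 h. The mean of all probe sets gave 2 for TNF 24 h against 2 h, 1 for TNF 6 d against 24 h, and 2 and 1 for the interactions, cyclic loess gave 1, 1, 2 and 1 for these, and no trend gave 1 for TNF 24 h against 2 h. Smaller moves include Pdgfrb at TNF 24 h, which lost its call with no filter (adjusted p = 0.0615), cyclic loess (0.0845) and the 2-fold limit, and at TNF 6 d with the 2-fold limit, so that these counts were 2. The cause of these moves was not tested. Shares of all tested genes called are given here only for the main fit and without TNF 6 d replicate 2. The counts of members under other settings therefore cannot be read as results about the members. Leaving out an array gave 0 to 1 at Dex 2 h, 1 to 3 at Dex 6 d, 1 to 2 at TNF 2 h, 2 to 4 at TNF 24 h, 1 to 3 for Dex against TNF at 2 h, 1 to 3 for Dex 24 h against 2 h, 0 to 4 for TNF 24 h against 2 h, 0 to 2 for TNF 6 d against 24 h, and 1 to 2 and 0 to 2 for the interactions.

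The replicate block changed no member's call: Pdgfrb had limma adjusted p = 1.77e-05 at Dex 24 h against control and 1.24e-07 for Dex against TNF at 24 h with the block, in the 2 comparisons where same-numbered arrays deviated together. In the other 11 comparisons not every same-numbered pair was counted as deviating together, which does not show that the numbers carry no pairing. For TNF 24 h against control the correlations were 0.0555 to 0.0877. The labels do not say what arrays of the same number share. Signals near the filter level, as for Cd34, set a limit to any change that could be seen.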
